A study of Mus musculus with 32 samples.

Results

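Axon guidance ligands and receptors were followed in the amygdala and hippocampus of adult mice with mutations in *Kmt2a* and *Kdm5c*, which encode a methyltransferase and a demethylase of histone H3 lysine 4 (H3K4). The genes were taken by name: every protein-coding gene of the GENCODE M21 annotation whose symbol marks it as a class 3 to class 7 semaphorin, plexin, neuropilin, ephrin, Eph receptor, netrin, netrin-G, Dcc or Unc5 receptor, Slit or Robo. This gave 70 genes of the 53715 in the gene tables, of which 21890 are protein-coding, and 3 further matches of other biotypes were left out. They comprise 36 ligands and 34 receptors.

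These families steer growing axons. Semaphorins signal through plexins, with neuropilins as co-receptors for most secreted class 3 members, ephrins signal through Eph receptor tyrosine kinases and back into the cell that carries them, netrins attract axons through Dcc and repel them through Unc5 receptors, and Slits repel axons through Robo receptors. In the adult brain many of the same proteins remain at synapses, where they take part in spine formation and plasticity, and some serve in vessels and glia.

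The libraries came from F1 males of a cross between the 129S1/SvImJ and C57BL/6J strains (129xB6 in the labels), all labelled adult. WT mice, *Kmt2a*-HET mice (2a-HET in the labels, with 1 deleted allele of the H3K4 methyltransferase gene *Kmt2a*), *Kdm5c*-KO mice (5c-KO, males hemizygous for a deletion in the X-linked H3K4 demethylase gene *Kdm5c*) and double mutants (DM, with both) were each represented by 4 mice, and both regions were taken from each mouse, which gave 32 libraries. The *Kmt2a* deletion was made by crossing a floxed allele with a ROSA26 cre/ERT2 line, and both mutations were then inherited from the parents of the F1 mice. Each library is a piece of bulk tissue that holds neurons, glia and vessels.

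Each library held between 19215503 and 27798980 counts on genes, and all 70 genes had counts in every library. The genes took 0.323 to 0.397% of the counts of an amygdala library and 0.370 to 0.546% of those of a hippocampal library. Normalised counts of *Kdm5c*, over the whole gene, were 1179 to 1481 in the 16 libraries of *Kdm5c*-KO and DM and 1177 to 1965 in the 16 others, with lower group means in both mutants in both regions and some overlap, while those of *Kmt2a* over the whole gene (2075 to 6900 in all libraries) do not check the label because reads outside the deleted exons are counted too. Markers of 7 genes for the hippocampus summed to 1469 to 4436 in amygdala libraries against 9126 to 34067 in hippocampal libraries, where 7 of 7 were called higher. Of the 7 amygdala markers only 2 were called lower in the hippocampus and 2 were called higher, so this list did not set the labelled amygdala apart. The amygdala libraries also carried markers of the striatum (sums of 6572 to 50677, against 2092 to 13181 in the hippocampus) and of the hypothalamus (1932 to 8447 against 9.70 to 529). Choroid plexus markers passed a sum of 20000 in 5 hippocampal libraries (WT replicate 3, *Kdm5c*-KO replicates 1 and 4, DM replicates 2 and 4) and in 1 amygdala library (DM replicate 1).

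Levels were compared between genes per kilobase of exon, as the mean normalised count over the 32 libraries divided by the length of all exons of the gene. In this mean over both regions the highest levels were those of the transmembrane semaphorin gene *Sema6b* (1517 per kb), the ephrin gene *Efnb3* (1274), the netrin receptor gene *Unc5a* (979) and the secreted ligand gene *Slit1* (912). The order differed by region. In the amygdala *Sema6b* (1432 per kb), *Efnb3* (1374) and *Unc5a* (701) were followed by *Plxnb1* (514), with *Slit1* at 459, and in the hippocampus *Sema6b* (1602) was followed by *Slit1* (1365), *Unc5a* (1257) and *Efnb3* (1175). *Sema7a*, the only semaphorin anchored by a lipid, had a mean of 719 per kb, and *Efna3* (634) and *Epha4* (632) led the ephrin-A ligands and the EphA receptors. In the other families the genes highest per kb in the mean over both regions were *Ephb6* (502), *Plxna1* (483), *Ntng2* (266), *Sema4f* (261), *Nrp2* (147), *Sema5a* (116), *Robo2* (114) and *Sema3e* (90.7). Some of these did not hold in each region. In the amygdala *Plxnb1* (514 per kb) exceeded *Plxna1* (324), *Sema4a* (255) exceeded *Sema4f* (234), *Sema5b* exceeded *Sema5a* (58.5) and *Sema3f* (72.2) exceeded *Sema3e* (35.7), and in the hippocampus *Nrp1* (153) exceeded *Nrp2* (137). The lowest levels in the mean were those of *Epha1* (1.95 per kb), *Efna4* (5.48) and *Epha2* (5.79). The secreted class 3 semaphorins lay between 15.2 (*Sema3a*) and 90.7 per kb.

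**Figure D1:**
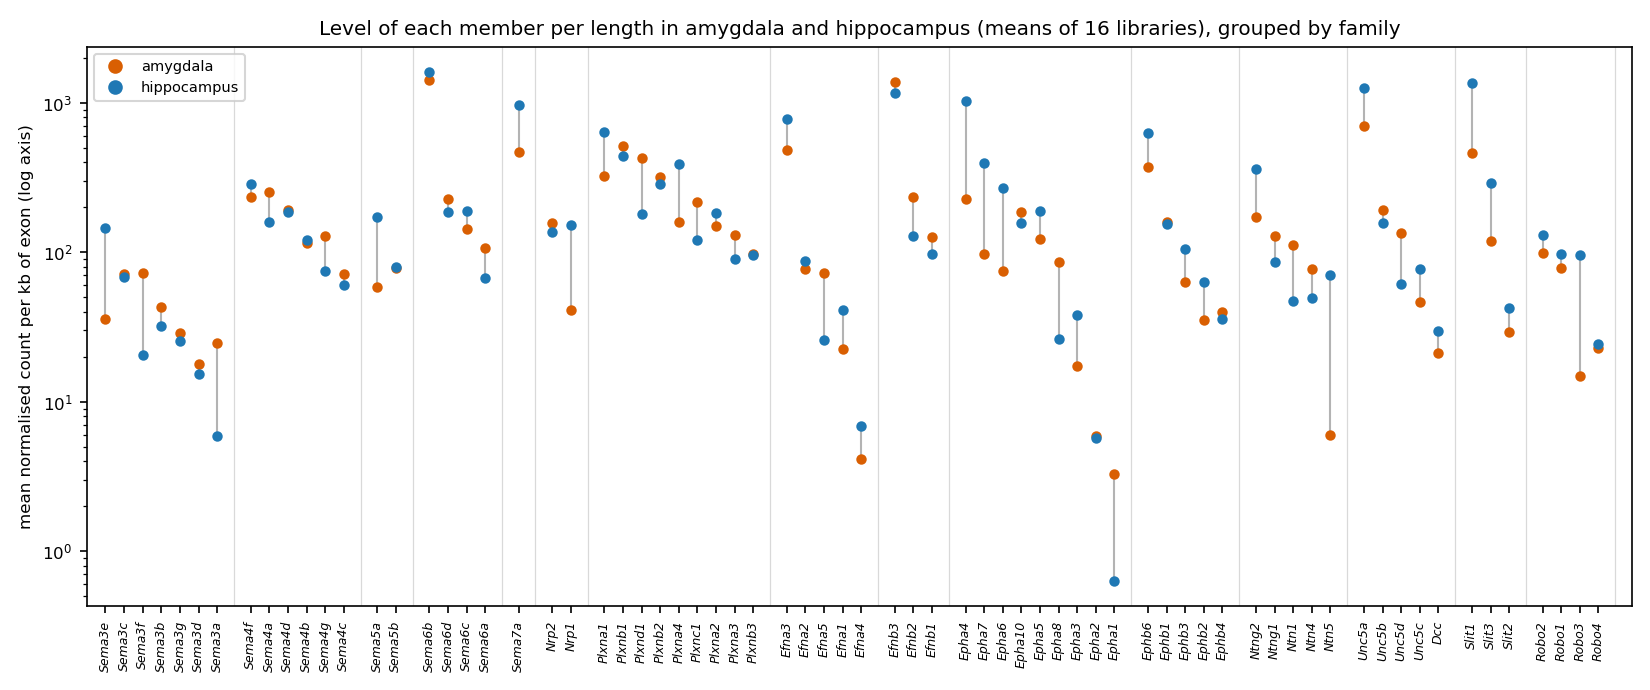
Mean normalised count per kb of exon (log axis) of each of the 70 genes, grouped by family and ordered by level, with the mean of 16 amygdala libraries in orange and of 16 hippocampal libraries in blue. *Sema6b* and *Efnb3* stand highest in the mean of both regions, and the widest gaps between the regions are those of *Ntn5*, *Robo3* and *Epha1*.

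The 2 regions were compared across all 16 mice to ask which guidance genes an adult hippocampus and amygdala express differently. Of the 70 genes 62 were called at an adjusted *p* under 0.1 (DESeq2 Wald test, Benjamini-Hochberg over all genes), 33 higher and 29 lower in the hippocampus. In this comparison 45.2% of all genes tested were called (21.8% higher and 23.4% lower), and 57.9% of those with at least 10 counts in 4 libraries, a filter that all 70 pass. The median log2 fold change, hippocampus over amygdala, was 0.049 over the 70 genes and -0.010 over all genes. The difference was at least 2-fold for 22 genes, 14 higher and 8 lower. In 16 of 16 mice 22 genes were higher in the hippocampus than in the amygdala of the same mouse, and 12 were lower in 16 of 16. For 10 genes the 16 libraries of one region did not overlap with the 16 of the other (8 higher, 2 lower), as was the case for 2.92% of all genes with a count. Many of those genes have low counts, whereas the mean normalised counts of the 70 had a median of 910. No set of genes matched for level was compared. Markers of excitatory neurons summed to 135597 to 247344 in the hippocampus and 61831 to 123464 in the amygdala (4 genes), and markers of inhibitory neurons to 9184 to 16787 and 21508 to 32839 (6 genes). Striatal markers (6 of 6, median log2 fold change -3.88) and hypothalamic markers (6 of 6, median -6.21) were called lower in the hippocampus. The part of these tissues and cell types in the region differences was not tested. In bulk tissue fewer cells of a type and less RNA per cell cannot be told apart.

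**Figure D2:**
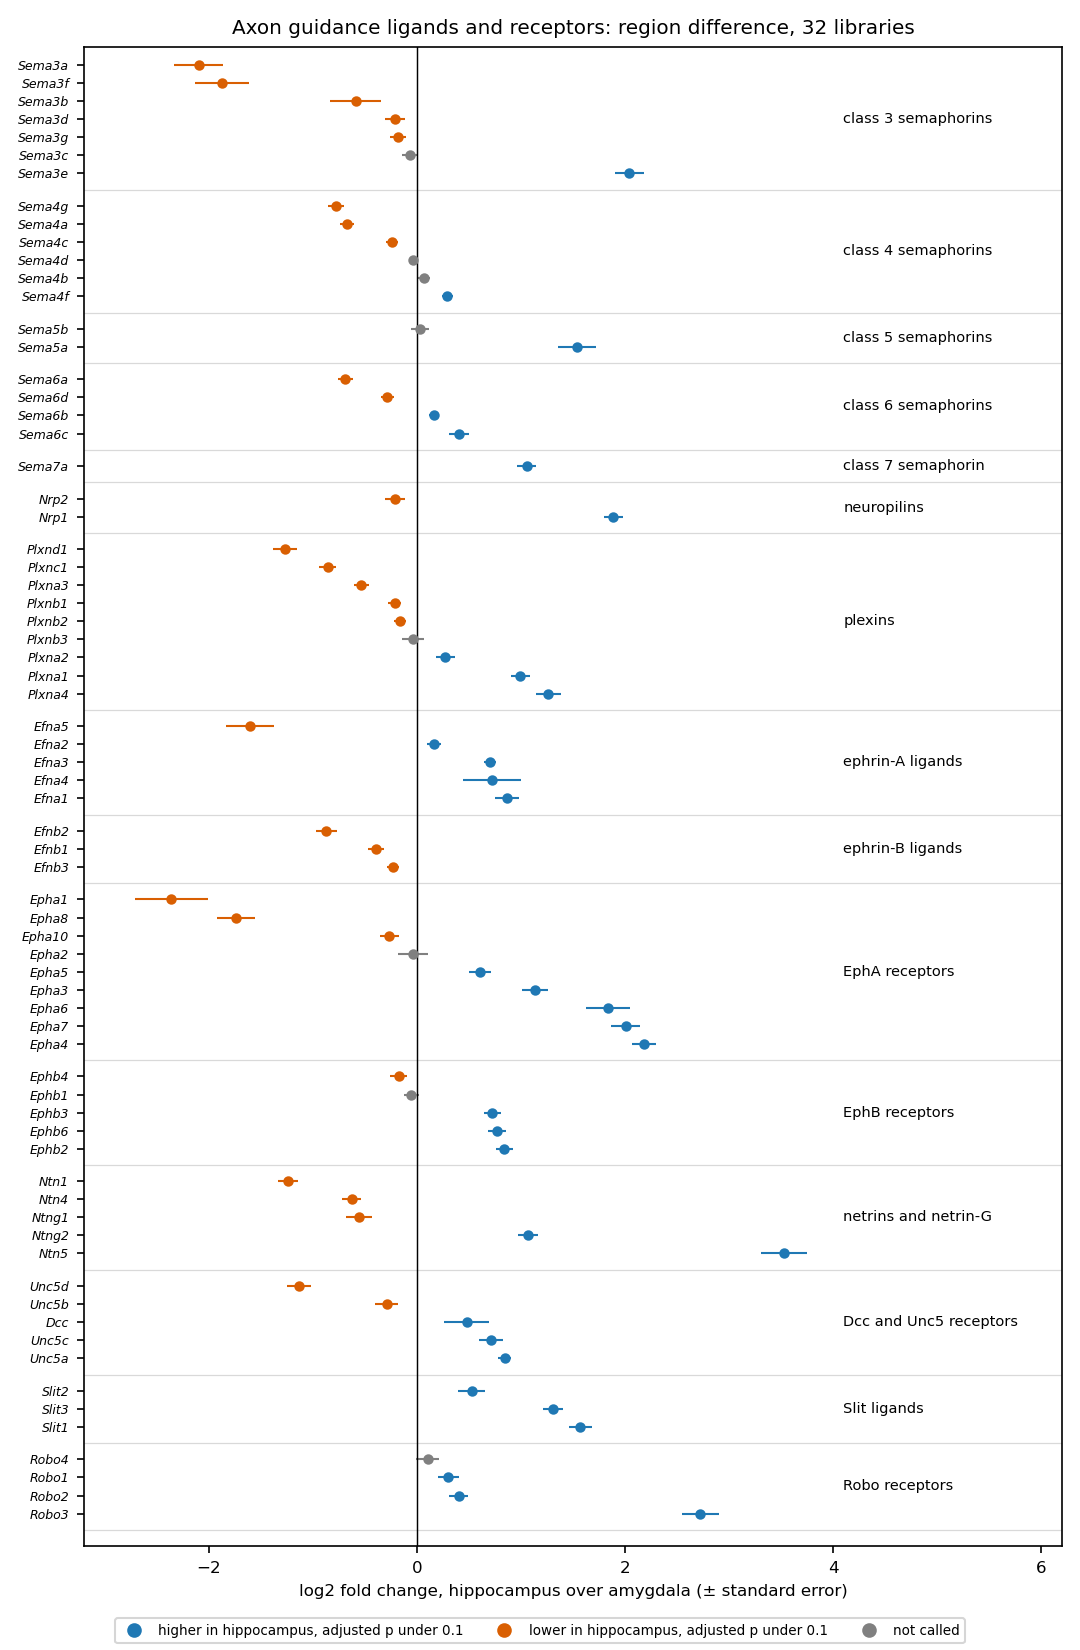
Log2 fold change, hippocampus over amygdala, with its standard error for each of the 70 genes, ordered by family. Points right of 0 are higher in the hippocampus. The 3 ephrin-B ligands lie on the lower side and the Slits and Robos on the higher side, while the other families with more than 1 gene, the class 5 semaphorins apart, have called genes on both sides.

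Among the secreted class 3 semaphorins 1 gene was higher in the hippocampus and 5 were lower, and *Sema3c* was not called (log2 fold change -0.065). *Sema3e* (chr5:14025276-14256689), whose protein binds plexin D1 without a neuropilin, had normalised counts of 174 to 567 (median 306) in the amygdala and 879.6 to 2017 (median 1383) in the hippocampus. The 2 ranges did not overlap, and the hippocampal level was 4.12-fold higher (log2 fold change 2.04 ± 0.14 (SE), adjusted *p* = 1.11e-47). *Sema3a* (chr5:13125414-13602565), the founding repellent of the class and a ligand of neuropilin 1, ran the other way, at 228 to 446 (median 342) in the amygdala and 17.3 to 279 (median 68.2) in the hippocampus. It was lower in the hippocampus of all 16 mice (log2 fold change -2.10 ± 0.23 (SE), adjusted *p* = 2.55e-18), and the ranges touched only because WT replicate 4 stood at 279 in the hippocampus. *Sema3f* (chr9:107681500-107710475), a ligand of neuropilin 2, followed the pattern of *Sema3a*, with 207 to 503 (median 366) and 22.5 to 277 (median 89.6) (log2 fold change -1.87 ± 0.26 (SE), adjusted *p* = 5.90e-12), and WT replicate 4 (277) and *Kdm5c*-KO replicate 1 (267) were the hippocampal libraries that reached the amygdala range. *Sema3b* (-0.59 on the log2 scale), *Sema3d* (-0.21) and *Sema3g* (-0.18) were lower by smaller amounts. Without the 6 libraries of high choroid plexus markers, 5 of them hippocampal, the value of *Sema3b* was -1.11 (adjusted *p* = 3.28e-13). All 3 calls were lost in some fits that left out a mouse, and that of *Sema3g* also without the 6 libraries of high choroid plexus markers.

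The receptors of the class 3 semaphorins differed as widely. *Nrp1* (chr8:128358604-128503363), the co-receptor for Sema3a, had normalised counts of 325 to 493 (median 400.3) in the amygdala and 1019 to 2141 (median 1476) in the hippocampus. No hippocampal library came near the amygdala range, and the difference of 3.71-fold (log2 fold change 1.89 ± 0.092 (SE), adjusted *p* = 2.51e-91) had the smallest adjusted *p* of the 70 genes. *Nrp2*, the co-receptor for Sema3f, was close to even, at 1857 ± 268 in the amygdala and 1618 ± 403 in the hippocampus (SD, n = 16 each), and lower in the hippocampus (log2 fold change -0.21 ± 0.10 (SE), adjusted *p* = 0.0734), a call lost without any 1 of 6 mice and without the 6 libraries of high choroid plexus markers. The co-receptor *Nrp1* was higher in the region where its ligand gene *Sema3a* was lower, and *Plxnd1*, the receptor of Sema3e, was 2.41-fold lower in the region where *Sema3e* was higher. Other ligand and receptor genes differed in the same direction. *Sema3f* and *Nrp2* were both lower in the hippocampus, and the called Slits and Robos, below, were all higher. *Plxnd1* counts were 2324 to 4458 (median 3034) in the amygdala and 823 to 3029 (median 1115) in the hippocampus (log2 fold change -1.27 ± 0.12 (SE), adjusted *p* = 2.64e-26), with 3029 in hippocampal WT replicate 4 and no other hippocampal library above 1655.

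Of the 9 plexins 3 were higher, 5 lower and 1, *Plxnb3*, not called (-0.035). Those of class A, which pair with neuropilins, did not differ in the same direction. *Plxna4* ranged over 1338 to 2857 (median 2334) in the amygdala and 2429.8 to 9064 (median 5296) in the hippocampus (log2 fold change 1.27 ± 0.12 (SE), adjusted *p* = 2.11e-23). *Plxna1* had 2083 to 4025 (median 2880.1) and 3873 to 7247 (median 5787) (log2 fold change 0.99 ± 0.092 (SE), adjusted *p* = 7.05e-26). Both were higher in the hippocampus of all 16 mice, and *Plxna2* was higher by less (log2 fold change 0.28), whereas *Plxna3*, on the X chromosome, was lower (-0.53). *Plxnc1*, the plexin for Sema7a, had 1456 to 2460.2 (median 1775) in the amygdala and 684 to 1342 (median 977) in the hippocampus and its ranges did not overlap (log2 fold change -0.86 ± 0.080 (SE), adjusted *p* = 1.80e-25). *Plxnb1* (-0.21) and *Plxnb2* (-0.16), receptors of class 4 semaphorins, were lower by less.

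Among the membrane-bound semaphorins a pair of genes differed at least 2-fold. *Sema5a* (chr15:32244810-32696341), a transmembrane protein with thrombospondin repeats, had 602 to 1479.9 (median 1165) in the amygdala and 946 to 6713 (median 2841) in the hippocampus (log2 fold change 1.54 ± 0.18 (SE), adjusted *p* = 2.88e-16), with the highest count, 6713, in *Kmt2a*-HET replicate 4. *Sema7a*, the lipid-anchored member that promotes axon growth through integrins, had 1026 to 2272 (median 1549) and 1580.2 to 4052 (median 3357) (log2 fold change 1.06 ± 0.094 (SE), adjusted *p* = 1.29e-27). Both were higher in the hippocampus of all 16 mice, and the Sema7a receptor gene *Plxnc1*, above, was lower in all 16. Among the 6 class 4 genes *Sema4g* (-0.78 on the log2 scale), *Sema4a* (-0.67) and *Sema4c* (-0.24) were lower, *Sema4f* (0.29) was higher, and *Sema4b* (0.068) and *Sema4d* (-0.035) were not called. The class 6 genes split, with *Sema6a* (-0.69) and *Sema6d* (-0.28) lower and *Sema6b* (0.16) and *Sema6c* (0.41) higher. *Sema5b* was even between the regions (0.030, not called).

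**Figure D3:**
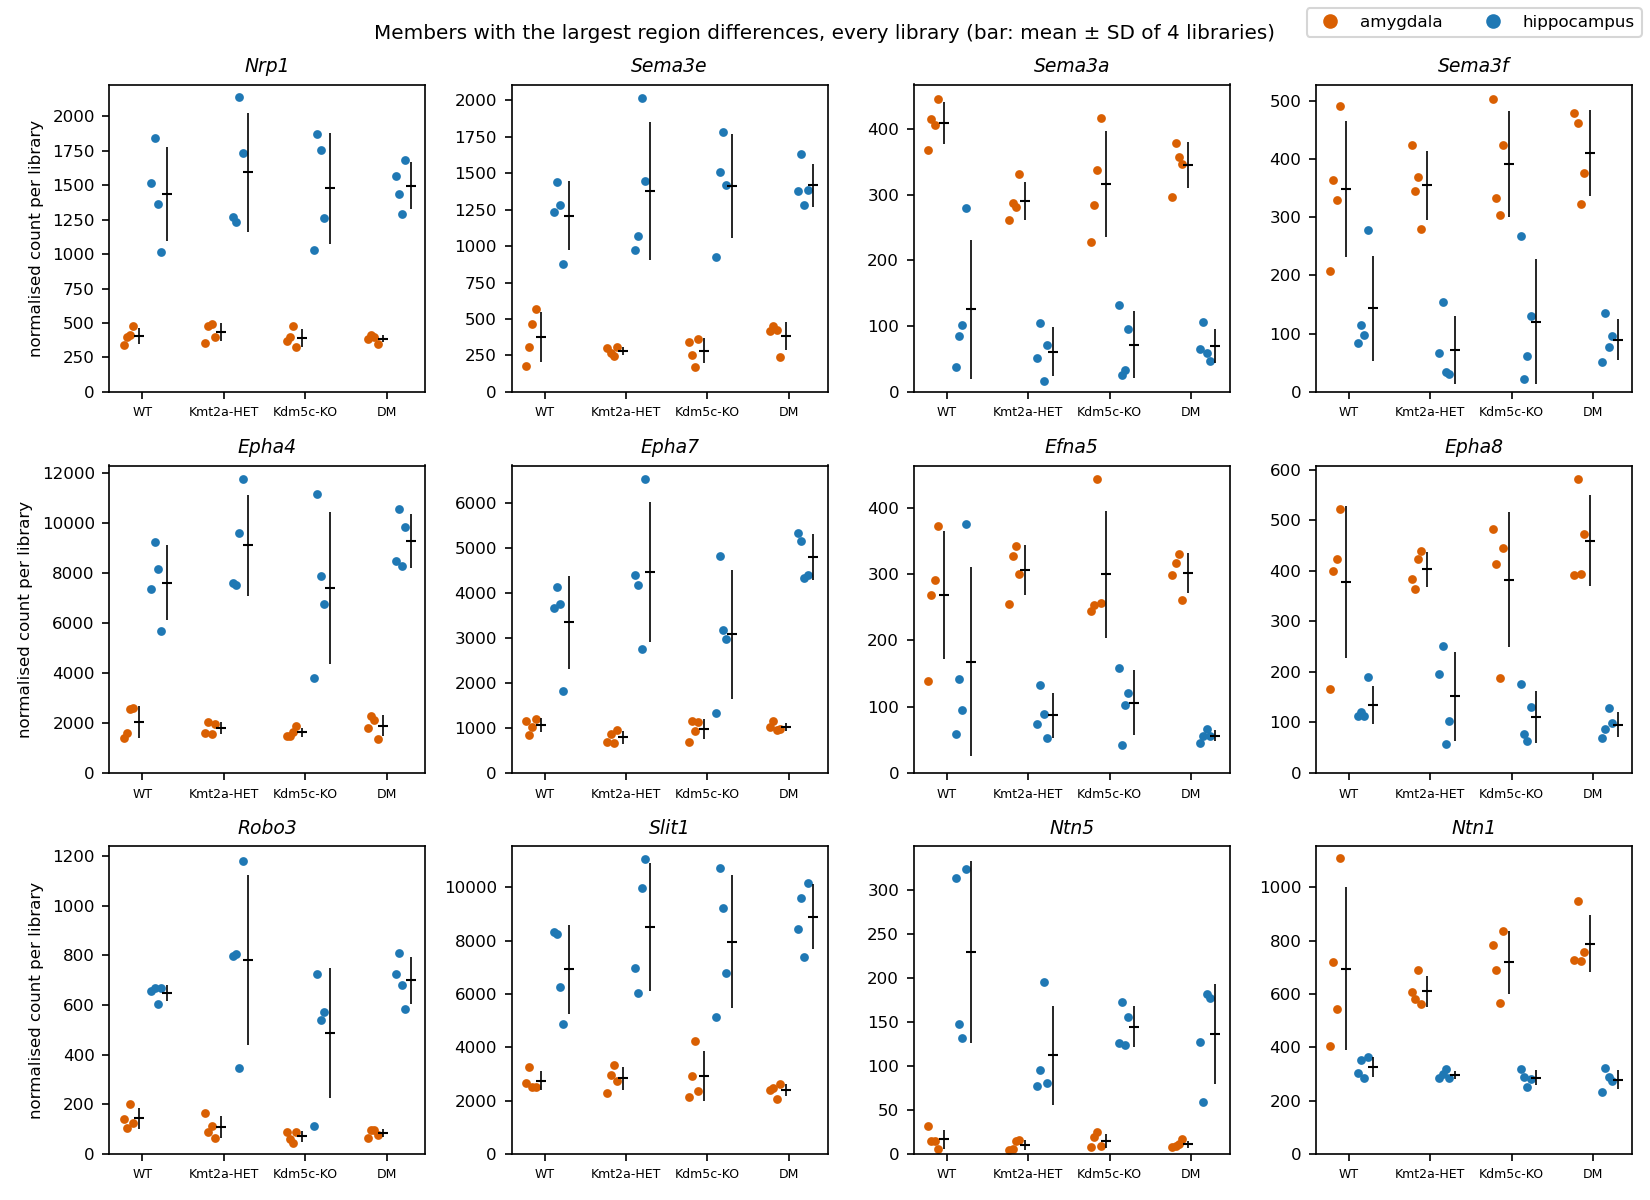
Normalised counts of 12 genes in every library (orange, amygdala; blue, hippocampus) by genotype, with the mean ± SD of 4 libraries as a bar. *Nrp1*, *Sema3e*, *Epha4*, *Epha7*, *Slit1*, *Ntn5* and *Ntn1* separate the regions in all 32 libraries, and *Robo3* does so except for hippocampal *Kdm5c*-KO replicate 1, at 114.

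In summed counts the family with the largest difference was the EphA receptors, tyrosine kinases that bind the lipid-anchored ephrin-A ligands. Their 9 genes together had a mean of 7201 normalised counts in the amygdala and 18475 in the hippocampus, with 5 higher, 3 lower and *Epha2* not called (-0.033). As a ratio the sum of the 3 Slit genes (4177 and 10929) differed by a like amount. *Epha4* (chr1:77367185-77515088), which binds ephrins of both classes, had 1345 to 2616 (median 1717) in the amygdala and 3780.0 to 11774 (median 8219) in the hippocampus. All 32 libraries were separated by region (4.54-fold higher, log2 fold change 2.18 ± 0.12 (SE), adjusted *p* = 9.16e-77), and the lowest hippocampal library was *Kdm5c*-KO replicate 1. *Epha7* (chr4:28813131-28967499) had 670.0 to 1205 (median 969) and 1343 to 6543 (median 4157) and was separated in the same way (log2 fold change 2.01 ± 0.14 (SE), adjusted *p* = 2.18e-44). *Epha6*, with 203 to 589 (median 401) and 386 to 2759.8 (median 1369.9), was higher in the hippocampus of 16 of 16 mice (log2 fold change 1.84 ± 0.21 (SE), adjusted *p* = 1.28e-16). *Epha3* (1.14 on the log2 scale) and *Epha5* (0.61) were higher by less.

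*Epha8* (chr4:136929419-136956816) ran against the abundant members, at 166 to 582 (median 418) in the amygdala and 56.8 to 252 (median 113) in the hippocampus (log2 fold change -1.74 ± 0.18 (SE), adjusted *p* = 7.92e-21). It was lower in the hippocampus of all 16 mice, although its neighbour at a distance of 93430 bases on chromosome 4, *Ephb2*, was higher in all 16 (log2 fold change 0.84 ± 0.080 (SE), adjusted *p* = 1.45e-24). *Epha10*, a receptor without an active kinase, was lower (log2 fold change -0.26), and *Epha1* had 1.89 to 20.8 (median 14.8) counts in the amygdala and 0.879 to 6.73 (median 2.14) in the hippocampus, a level at which a few reads decide the fold. *Ephb3* (0.73) and *Ephb6* (0.77), the latter also without kinase activity, were higher like *Ephb2*, whereas *Ephb4*, known from vessels, was lower by a little (-0.17, adjusted *p* = 0.0658, a call lost without any 1 of 6 mice and without the libraries numbered 1) and *Ephb1* was not called (-0.051).

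The ligands of these receptors divided by class. All 3 ephrin-B genes, which encode transmembrane ligands, were lower in the hippocampus. *Efnb2* had 1224 to 2046 (median 1593) and 589 to 1355 (median 842) and was lower in all 16 mice (log2 fold change -0.87 ± 0.10 (SE), adjusted *p* = 2.99e-17). *Efnb1* (-0.39) and the abundant *Efnb3* (-0.23) were lower in 15 of 16 mice each. Of the 5 ephrin-A genes 4 were higher and 1, *Efna5*, was lower. *Efna5* (chr17:62604184-62881317), a ligand of Epha4 and Epha7 among others, had 139 to 443 (median 295) in the amygdala and 42.2 to 375 (median 81.6) in the hippocampus and was lower in 15 of 16 mice (log2 fold change -1.60 ± 0.23 (SE), adjusted *p* = 2.73e-11). The exception was WT replicate 4, with 372 in the amygdala and 375 in the hippocampus.

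*Efna1*, *Efna3* and *Efna4* lie side by side on chromosome 3, all on the minus strand, with 32756 bases between the first pair and 10424 between the second. They were all higher in the hippocampus, and their promoters (RefSeq, GRCm38.p6) are shown here because the genes are neighbours that differed in the same direction at very different levels. Each runs 5′ to 3′ on the strand of the gene from 250 bases before the start to 50 after it, with CpG dinucleotides in capitals: *Efna1* at chr3:89280902-89281201, *Efna3* at chr3:89322890-89323189 and *Efna4* at chr3:89337979-89338278.
Efna1: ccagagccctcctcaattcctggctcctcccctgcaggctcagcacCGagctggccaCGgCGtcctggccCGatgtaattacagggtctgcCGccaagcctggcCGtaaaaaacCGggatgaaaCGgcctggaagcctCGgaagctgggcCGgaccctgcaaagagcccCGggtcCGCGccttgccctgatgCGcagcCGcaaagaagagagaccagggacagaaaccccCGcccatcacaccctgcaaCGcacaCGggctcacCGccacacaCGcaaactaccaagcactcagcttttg
Efna3: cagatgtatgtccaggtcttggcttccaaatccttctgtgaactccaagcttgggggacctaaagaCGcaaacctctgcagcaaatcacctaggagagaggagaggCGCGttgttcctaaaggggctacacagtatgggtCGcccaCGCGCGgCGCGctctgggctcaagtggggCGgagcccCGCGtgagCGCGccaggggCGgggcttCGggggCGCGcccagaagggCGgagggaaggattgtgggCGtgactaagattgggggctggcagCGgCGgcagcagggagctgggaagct
Efna4: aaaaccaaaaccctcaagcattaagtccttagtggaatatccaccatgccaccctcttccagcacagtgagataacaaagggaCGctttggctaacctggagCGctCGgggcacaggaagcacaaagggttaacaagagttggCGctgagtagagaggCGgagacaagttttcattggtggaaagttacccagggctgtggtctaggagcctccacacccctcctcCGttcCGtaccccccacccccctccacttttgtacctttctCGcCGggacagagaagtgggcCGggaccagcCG

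The windows hold 20, 22 and 11 CpG dinucleotides. *Efna3* was the abundant one, with 969.6 to 1489.5 (median 1186) in the amygdala and 1657 to 2254 (median 1867) in the hippocampus, ranges that did not overlap (log2 fold change 0.70 ± 0.054 (SE), adjusted *p* = 6.41e-37). *Efna1* had 29.7 to 60.0 (median 38.8) and 52.2 to 111 (median 80.2) (log2 fold change 0.87 ± 0.12 (SE), adjusted *p* = 5.51e-13). *Efna4* had 3.08 to 13.5 (median 5.50) and 2.55 to 19.1 (median 10.8) (log2 fold change 0.72 ± 0.28 (SE), adjusted *p* = 0.0238) and was higher in 15 of 16 mice, and this call was lost when the 6 libraries with high choroid plexus markers were left out. The 3 genes had log2 fold changes of 0.87, 0.70 and 0.72, and *Efna2*, on chromosome 10, had 0.17. Exons of *Efna3* and *Efna4* share 344 and 168 bases with annotated antisense transcripts, and the strand setting of the counting is not stated for these tables.

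Over all 60 of the 70 genes with a RefSeq promoter window the median number of CpG dinucleotides was 22.5, against 7 over 32851 windows of all genes, and 50 of the 60 windows (83.3%) held at least 10, against 43.5% of all windows. CACGTG, the palindromic E-box, which reads the same on both strands, was present in 3 of the 60 windows (5%) and in 7.15% of all windows. These are descriptions of the sequence only.

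Slits and Robos were the family pair in which every called gene was higher in the hippocampus, 6 of 7 genes. *Slit1* (chr19:41600257-41743665) had 2076 to 4224 (median 2574) in the amygdala and 4892 to 11079.9 (median 8297) in the hippocampus, with no overlap (log2 fold change 1.57 ± 0.11 (SE), adjusted *p* = 3.43e-44). *Slit3* had 575 to 878 (median 715) and 1022 to 2604 (median 1699.6), again with no overlap (log2 fold change 1.31 ± 0.095 (SE), adjusted *p* = 1.58e-41). *Slit2*, the classical midline repellent, differed by less and overlapped, at 486 to 1065 (median 763) and 583 to 2000.3 (median 1028) (log2 fold change 0.53 ± 0.13 (SE), adjusted *p* = 2.90e-04). Their main neuronal receptors *Robo1* (0.30 on the log2 scale, 13 of 16 mice) and *Robo2* (0.40, 15 of 16) were higher by 1.24-fold and 1.32-fold.

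*Robo3*, a divergent Robo that regulates midline crossing, stood apart from them. It had 44.3 to 200.2 (median 92.7) in the amygdala and 114 to 1181 (median 667) in the hippocampus, 6.61-fold higher (log2 fold change 2.72 ± 0.18 (SE), adjusted *p* = 7.78e-50), and was higher in the hippocampus of 16 of 16 mice. Its neighbour *Robo4*, known from vessel endothelium, had 81.5 to 155 (median 122) and 89.6 to 174 (median 127) and was not called (log2 fold change 0.10 ± 0.11 (SE), adjusted *p* = 0.491). Summed markers of the endothelium were 2182 to 3656 in amygdala libraries against 2140.3 to 4227 in hippocampal libraries, and 0 of the 5 were called by DESeq2. The pair is shown because its ends are 553 bases apart on chromosome 9 (*Robo4* at chr9:37401897-37415115 on the plus strand, *Robo3* at chr9:37415669-37433246 on the minus strand), so that the genes run toward each other. The promoter windows, written as above, are chr9:37433126-37433425 for *Robo3* and chr9:37401722-37402021 for *Robo4*.
Robo3: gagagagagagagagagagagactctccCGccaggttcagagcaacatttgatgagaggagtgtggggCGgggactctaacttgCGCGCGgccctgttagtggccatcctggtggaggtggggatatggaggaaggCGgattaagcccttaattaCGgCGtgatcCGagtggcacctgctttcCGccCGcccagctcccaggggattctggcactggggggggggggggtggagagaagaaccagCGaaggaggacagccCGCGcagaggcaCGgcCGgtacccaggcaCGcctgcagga
Robo4: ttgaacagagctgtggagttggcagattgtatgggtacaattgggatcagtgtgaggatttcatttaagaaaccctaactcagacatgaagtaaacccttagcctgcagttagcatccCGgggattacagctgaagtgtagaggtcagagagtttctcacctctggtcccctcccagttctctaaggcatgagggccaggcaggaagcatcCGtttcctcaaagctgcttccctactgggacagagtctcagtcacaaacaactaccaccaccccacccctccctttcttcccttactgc

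The *Robo3* window holds 17 CpG dinucleotides and the *Robo4* window 2. Hippocampal *Kdm5c*-KO replicate 1 was the library in which *Robo3* was lowest, at 114 against 344 to 1181 in the other 15. That library also had the lowest sum of hippocampal markers (9126), the highest sum of striatal markers among hippocampal libraries (13181) and a choroid plexus sum of 104171, and the part of tissue composition in its value was not tested. Without that mouse the region difference of *Robo3* was 2.81, adjusted *p* = 4.38e-72, and all 62 calls were kept.

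Netrins included the widest difference of all 70 genes. *Ntn5* (chr7:45684022-45694556), a member of the netrin family described in the adult neurogenic zones, had 4.17 to 31.3 (median 13.1) in the amygdala and 59.4 to 324 (median 139) in the hippocampus. The ranges were well apart, and the level was 11.5-fold higher in the hippocampus (log2 fold change 3.53 ± 0.22 (SE), adjusted *p* = 2.34e-55). Its exons overlap those of *Sec1* on the other strand by 519 bases, so reads of the 2 genes may not be told apart where counting did not use strand. *Ntn1* (chr11:68209364-68400823), the founding netrin, had 404 to 1110.0 (median 705) in the amygdala and 233 to 363 (median 288) in the hippocampus with no overlap, and was 2.36-fold lower in the hippocampus (log2 fold change -1.24 ± 0.10 (SE), adjusted *p* = 9.17e-36). *Ntn4* was lower as well (-0.63 on the log2 scale).

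The 2 netrin-G genes, whose lipid-anchored products bind partners at synapses and do not bind Dcc, went opposite ways. *Ntng2* had 430.2 to 1169.8 (median 672) and 1126 to 1975 (median 1426) and was higher in the hippocampus of 16 of 16 mice (log2 fold change 1.07 ± 0.094 (SE), adjusted *p* = 1.60e-28), while *Ntng1* had 477 to 1689 (median 992) and 454 to 970.0 (median 716) and was lower in 14 of 16 (log2 fold change -0.56 ± 0.12 (SE), adjusted *p* = 3.05e-05). *Ntng2* shares 558 bases of exon with a gene annotated on the same strand, 6530402F18Rik.

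The receptors of netrin divided too. *Unc5a* (chr13:54949411-55006018) was the abundant one, at 2319 to 4281 (median 2836) in the amygdala and 4198 to 6297 (median 5176) in the hippocampus (log2 fold change 0.84 ± 0.066 (SE), adjusted *p* = 3.49e-36), and was higher in the hippocampus of all 16 mice, as was *Unc5c* (log2 fold change 0.72). *Unc5d* had 755 to 1922 (median 1217) and 347 to 866 (median 544) and was lower in all 16 (log2 fold change -1.13 ± 0.11 (SE), adjusted *p* = 6.44e-23). *Unc5b*, which also acts in vessels, was lower in 15 of 16 mice (log2 fold change -0.29). *Dcc*, the attractive receptor, had 82.5 to 466 (median 272) and 140.0 to 695 (median 362), and its call (log2 fold change 0.48 ± 0.22 (SE), adjusted *p* = 0.0678) was lost without any 1 of 4 mice (*Kmt2a*-HET replicates 3 and 4, *Kdm5c*-KO replicate 2 or DM replicate 4).

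Transcript tables allowed the isoforms to be compared for the 54 genes with at least 100 counts in every library. In 3 of them (*Unc5a*, *Sema6a* and *Plxnb2*) at least 1 of the 3 leading transcripts differed by 10 or more percentage points in its mean share between the regions. These genes were chosen for that difference, so the shares are described without a test. In *Unc5a* the transcript without exon 6 of 16 (ENSMUST00000109994.8) made up 75.3 ± 7.93% (SD, n = 16) of the gene's counts in the amygdala, against 88.5 ± 3.09% in the hippocampus, and its share was higher in the hippocampus of 16 of 16 mice. The transcript with the exon (ENSMUST00000026994.13) made up 24.5 ± 7.87% and 11.2 ± 3.08%. The 2 transcripts differ only by this exon, chr13:54997193-54997360 on the plus strand, which is wholly coding and 168 bases long, a multiple of 3 (56 codons). Its sequence, from the GENCODE M21 transcripts, is shown because it is the whole of what differs.
Unc5a exon: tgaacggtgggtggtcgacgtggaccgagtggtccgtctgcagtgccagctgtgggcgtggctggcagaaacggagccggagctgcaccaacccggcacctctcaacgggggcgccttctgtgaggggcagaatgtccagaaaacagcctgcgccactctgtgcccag

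In *Sema6a* the transcript ENSMUST00000135790.7 had a share of 21.5 ± 4.59% in the amygdala and 41.4 ± 4.79% in the hippocampus (higher in 16 of 16 mice), and ENSMUST00000076043.12 had 30.2 ± 4.38% and 16.5 ± 4.02% (lower in 16 of 16). The *Plxnb2* difference was within the spread, with shares of 15.4 ± 13.7% and 25.6 ± 17.6% and 10 of 16 mice higher in the hippocampus. Shares of transcripts are estimates where reads fit several transcripts.

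Beyond these families a list of 80 other axon guidance genes was read, holding adaptors, cytoskeletal effectors and further ligands and receptors. In the hippocampus 36 of the 80 were called higher and 28 lower, with a median log2 fold change of 0.028. Those 64 calls stand beside the 45.2% of all genes called in this comparison and the 57.9% of those past the low-count filter. *Mical2*, a monooxygenase of the family that acts below plexins, had a mean of 2428 ± 505 in the amygdala and 9794 ± 1274 in the hippocampus (SD, n = 16 each; log2 fold change 2.02 ± 0.085 (SE), adjusted *p* = 3.74e-121). The adaptor *Nck2* had 467 ± 39.7 and 1205 ± 151 (log2 fold change 1.37 ± 0.062 (SE), adjusted *p* = 7.77e-106), and *Chn1*, whose product α-chimaerin acts below Epha4, had 9718 ± 1683 and 20679 ± 2766 (log2 fold change 1.09 ± 0.074 (SE), adjusted *p* = 4.19e-48). Those 3 were higher in the hippocampus, whereas the growth cone gene *Gap43* had 7793 ± 1021 and 2523 ± 789.8 (log2 fold change -1.65 ± 0.10 (SE), adjusted *p* = 1.04e-59). Also lower were *Ngfr*, the p75 neurotrophin receptor gene, with 572 ± 186 and 50.6 ± 24.4 (log2 fold change -3.50 ± 0.23 (SE), adjusted *p* = 2.83e-49), and *Dpysl5*, a collapsin response mediator gene, with 1526 ± 214 and 703 ± 139 (log2 fold change -1.13 ± 0.078 (SE), adjusted *p* = 9.20e-46).

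Whether the region difference depended on genotype was tested by a likelihood ratio test in the same 32 libraries. None of the 70 genes was called by DESeq2 (0 of 70, and 0 by edgeR), and 2 had an unadjusted *p* under 0.05, *Efna5* (0.0137) and *Sema3b* (0.0173). Of all genes 0.0422% were called and 1.96% had an unadjusted *p* under 0.05, against 2.86% of the 70. In the 8 WT libraries alone 38 of the 62 region calls were still made, and all 62 differences had the same sign. The 45.2% of all genes called with all libraries is not the background of this smaller fit.

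**Figure D4:**
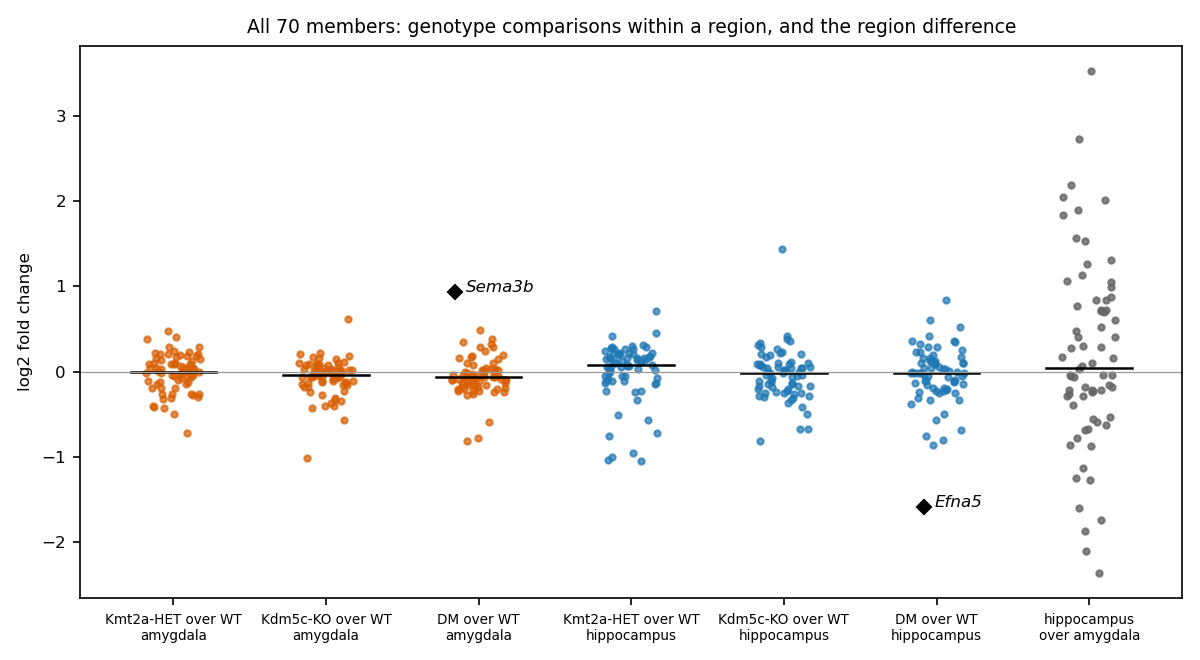
Log2 fold changes of the 70 genes for each mutant over WT in the amygdala (orange) and hippocampus (blue), with the region difference in gray and the median as a line. Black diamonds mark the genes called at an adjusted *p* under 0.1, *Sema3b* and *Efna5*, in the mutant comparisons. The comparisons in a region share the 4 WT libraries.

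Genotype comparisons within each region, which ask what loss of the methyltransferase, the demethylase or both does to these genes, gave few calls. In the amygdala 0 of the 70 genes were called by DESeq2 in *Kmt2a*-HET against WT (background 0.00988% of all genes; 6 of the 70 at an unadjusted *p* under 0.05), 0 in *Kdm5c*-KO against WT (0.751%; 5 of the 70) and 1 in DM against WT (0.966%; 7 of the 70). In the hippocampus the counts were 0 in *Kmt2a*-HET (0%; 5 of the 70), 0 in *Kdm5c*-KO (1.01%; 6 of the 70) and 1 in DM (0.875%; 6 of the 70). With edgeR's quasi-likelihood test all 6 counts were 0. Median log2 fold changes of the 70 genes lay between -0.065 and 0.077 in these 6 comparisons, against -0.014 to 0.002 over all genes. Genes at an unadjusted *p* under 0.05 made up 7.14 to 10% of the 70 in these comparisons and 2.40 to 5.55% of all genes, many of which have low counts. The comparisons share their WT libraries and are not independent. One of these, amygdala WT replicate 1, stood apart from the other 3 amygdala WT libraries, with a chi-square per gene of 67.2 to 136 in pairs with them against 15.8 to 35.4 among those 3, and with a hippocampal marker sum of 1469 against 3679 to 4436. It was the lowest of the 4 for 39 of the 70 genes and the highest for 13. Without it the amygdala counts against WT were again 0, 0 and 1 (0.0132, 1.105 and 1.22% of all genes), and its part in the differences was not tested.

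*Sema3b* (chr9:107597674-107609229), a secreted semaphorin, was the gene called most often. In the amygdala its normalised counts were 163, 176, 117 and 109 in WT replicates 1 to 4, 183, 223, 168 and 214 in the *Kmt2a*-HET mice, 223, 238, 218 and 188 in the *Kdm5c*-KO mice and 395, 226, 145 and 309 in the DM mice. All *Kdm5c*-KO libraries lay above the WT range, and DM overlapped WT through 1 library. DM exceeded WT by log2 fold change 0.93 ± 0.25 (SE), unadjusted *p* = 1.50e-04, adjusted *p* = 0.0273, *Kdm5c*-KO against WT was not called (log2 fold change 0.61 ± 0.25 (SE), unadjusted *p* = 0.0128), and neither was *Kmt2a*-HET. The highest value, 395, came from DM replicate 1, whose choroid plexus markers summed to 40727 against 777 to 7557 in the other 15 amygdala libraries. Without that library the DM difference was 0.68, adjusted *p* = 0.340, which is no longer called, and edgeR gave 0.93, adjusted *p* = 0.111. The call was also lost without WT replicate 3 (0.85, adjusted *p* = 0.160), WT replicate 4 (0.82, adjusted *p* = 0.105) or DM replicate 4 (0.85, adjusted *p* = 0.118).

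In the hippocampus *Sema3b* counts were 104, 72.8, 129 and 89.9 in the WT mice, 93.7, 74.4, 54.0 and 44.6 in the *Kmt2a*-HET mice, 634, 93.7, 152 and 188 in the *Kdm5c*-KO mice and 87.9, 246, 89.3 and 284 in the DM mice. The highest values fell in *Kdm5c*-KO replicates 1 and 4 and DM replicates 2 and 4, the libraries with choroid plexus sums of 104171, 26171, 27320 and 27503. *Kdm5c*-KO replicate 3 (152), with a sum of 13245, also lay above the WT range. WT replicate 3, with a sum of 25526, was the highest WT library. Over the 6 choroid plexus marker genes, each with at least 3 counts in some library, the sums were 913 to 25526 in WT, 931 to 2593 in *Kmt2a*-HET, 1347 to 104171 in *Kdm5c*-KO and 1116 to 27503 in DM. *Kdm5c*-KO against WT, in which *Sema3b* had the smallest *p* of the 70 genes, was not called (log2 fold change 1.43 ± 0.56 (SE), unadjusted *p* = 0.0112, adjusted *p* = 0.364). With both genotypes lacking *Kdm5c* set against both carrying it, a 2-factor fit used to measure the loss of *Kdm5c* over 8 against 8 libraries, *Sema3b* was higher by log2 fold change 1.42 ± 0.39 (SE), unadjusted *p* = 2.53e-04, adjusted *p* = 0.0196. Without the 5 libraries of high choroid plexus markers the value was 0.44, adjusted *p* = 0.726, which is not called. In the amygdala the same factor gave log2 fold change 0.53 ± 0.17 (SE), unadjusted *p* = 0.00160, adjusted *p* = 0.0960, and without the 1 library 0.42, adjusted *p* = 0.335. That call was lost on leaving out any 1 of 12 of the 16 libraries (all but WT replicates 1 and 2 and DM replicates 2 and 3).

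The *Kdm5c* loss factor called 1 of the 70 genes in the amygdala (1.68% of all genes; without WT replicate 1, *Sema3b* and *Ntng1*, 3.12%) and 2 in the hippocampus (2.66%). Amygdala *Ntng1* had 477, 920, 1689 and 1137 in the WT mice, 1159 to 1562 in *Kmt2a*-HET, 657 to 974 in *Kdm5c*-KO and 642 to 1171 in DM. Summed thalamus markers (5 genes) were 680, 1976, 5647 and 3569 in the same WT libraries. They were 3439 to 4525 in *Kmt2a*-HET, 1169 to 2517 in *Kdm5c*-KO and 1381 to 3462 in DM, and their part was not tested. The second hippocampal gene was *Plxnb2*, a plexin for class 4 semaphorins, with 2032, 2005, 1908 and 2042 in the WT mice, 1959, 1917, 1962 and 2106 in the *Kmt2a*-HET mice, 3219, 2133, 2168 and 2216 in the *Kdm5c*-KO mice and 2188, 2857, 1996 and 2737 in the DM mice (log2 fold change 0.29 ± 0.094 (SE), unadjusted *p* = 0.00195, adjusted *p* = 0.0824). Its 3 highest libraries, *Kdm5c*-KO replicate 1 and DM replicates 2 and 4, were again among those with high choroid plexus markers. Without the 5 libraries the difference was 0.081, adjusted *p* = 0.920. The call was lost without any 1 of 10 libraries: all 4 of WT, *Kmt2a*-HET replicates 1, 2 and 3, *Kdm5c*-KO replicate 1 and DM replicates 2 and 4, where the adjusted *p* reached 0.222. Left in the *Kdm5c*-KO and DM groups were 4 libraries, of which *Kdm5c*-KO replicate 2 (2133), replicate 3 (2168) and DM replicate 1 (2188) lay above the WT range.

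**Figure D5:**
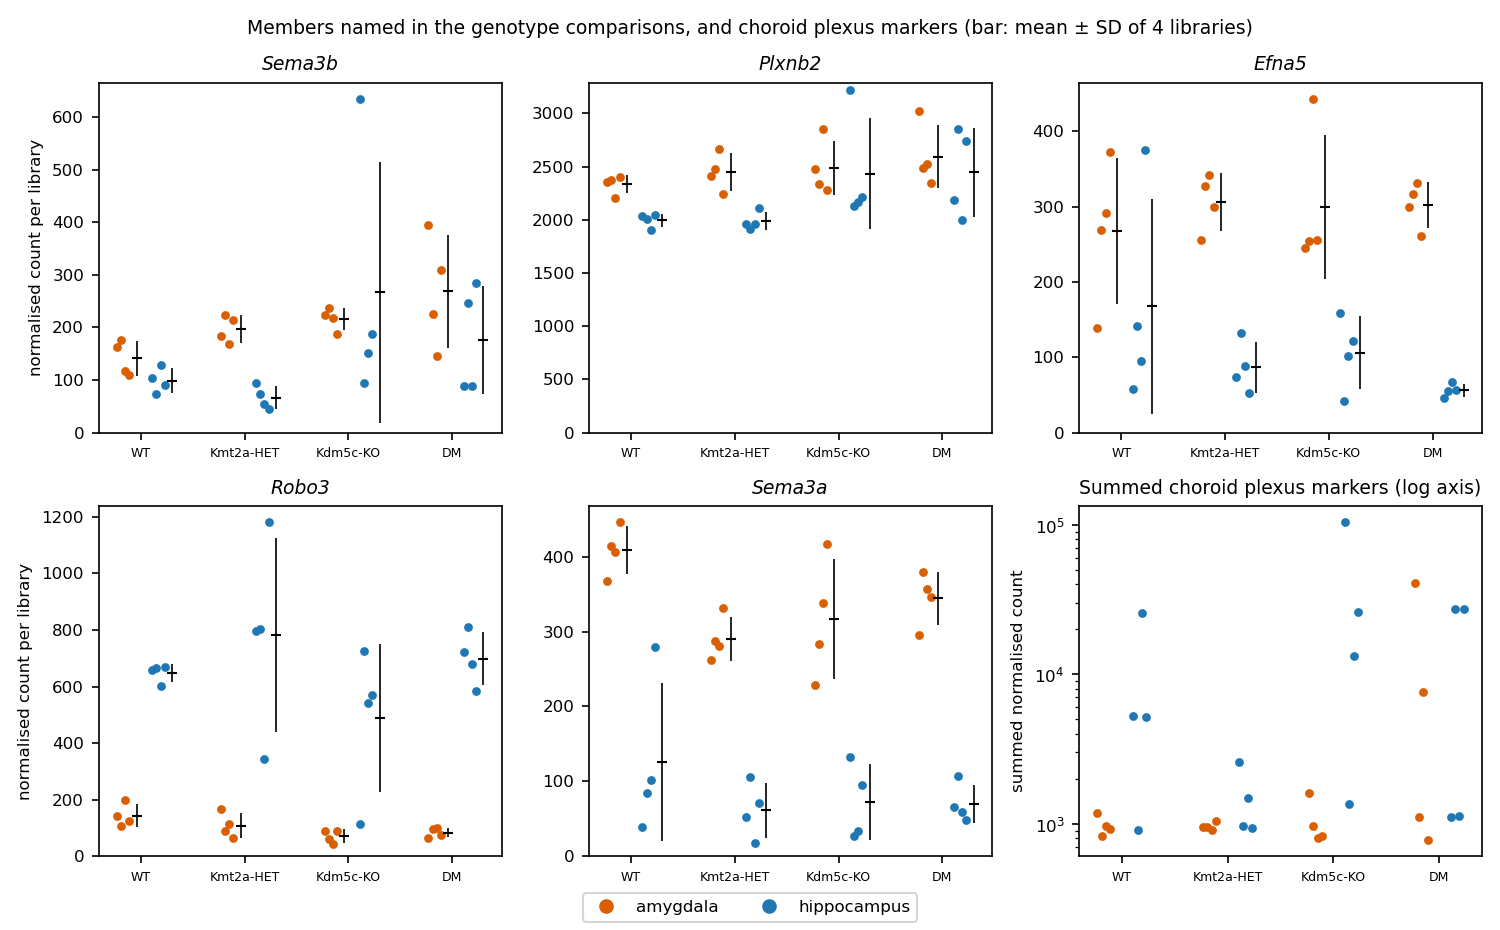
Normalised counts per library of *Sema3b*, *Plxnb2*, *Efna5*, *Robo3* and *Sema3a* by genotype and region, with mean ± SD of 4 libraries, and the summed choroid plexus markers on a log axis. The libraries with high *Sema3b* and *Plxnb2* in the hippocampus are those with marker sums above 20000, WT replicate 3 apart.

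*Efna5* was the gene called in the hippocampus of DM. Counts were 58.5, 142, 95.5 and 375 in the WT mice, 74.5, 132, 88.6 and 52.2 in the *Kmt2a*-HET mice, 159, 42.2, 102 and 121 in the *Kdm5c*-KO mice and 45.7, 55.6, 66.8 and 56.2 in the DM mice. The DM libraries were tight and overlapped WT replicate 1, and the WT mean of 168 ± 142 (SD, n = 4) rested on replicate 4. DM was lower than WT by log2 fold change -1.59 ± 0.46 (SE), unadjusted *p* = 6.09e-04, adjusted *p* = 0.0789. Without WT replicate 4, in which *Sema3a*, *Sema3f*, *Epha8* and *Plxnd1* were also the highest of the WT libraries and *Epha7* the lowest, the value was -0.82, adjusted *p* = 1, and edgeR gave -1.60, adjusted *p* = 0.309 with all libraries. The call was also lost without *Kdm5c*-KO replicate 3 or any 1 of the 4 DM libraries, with log2 fold changes of -1.69 to -1.50 and adjusted *p* of 0.104 to 0.232. The hippocampal markers of WT replicate 4 summed to 10521, and their part in its values was not tested. In the amygdala the WT and DM libraries overlapped (139, 269, 291 and 372 in the WT mice and 299, 317, 331 and 261 in the DM mice).

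*Robo3* in the amygdala came close to the threshold. It had 142, 106, 200 and 123 in the WT mice, 166, 87.7, 113 and 63.0 in the *Kmt2a*-HET mice, 90.1, 58.8, 44.3 and 90.2 in the *Kdm5c*-KO mice and 63.6, 95.3, 98.0 and 75.6 in the DM mice. All 8 libraries that lack *Kdm5c* were below the lowest WT library. *Kdm5c*-KO against WT gave log2 fold change -1.01 ± 0.30 (SE), unadjusted *p* = 8.60e-04, adjusted *p* = 0.110, and the *Kdm5c* loss factor log2 fold change -0.69 ± 0.22 (SE), unadjusted *p* = 0.00178, adjusted *p* = 0.104, neither of which is a call. With genes of low counts left out both were called, the first at an adjusted *p* of 0.09995. Without WT replicate 3, the highest, the first value was -0.81, adjusted *p* = 0.685, and without *Kdm5c*-KO replicate 4 it was -1.15, adjusted *p* = 0.0843, a call. In the hippocampus, where *Robo3* is higher, WT had 658, 667, 602 and 668 and *Kdm5c*-KO 114, 725, 541 and 570, and the difference was not called.

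In *Kmt2a*-HET mice no gene of these families was called, and the smallest *p* values belonged to *Sema3a* in the amygdala and *Ntn5* in the hippocampus. Amygdala *Sema3a* had 368, 415, 406 and 446 in the WT mice and 262, 287, 281 and 331 in the *Kmt2a*-HET mice, without overlap (log2 fold change -0.49 ± 0.15 (SE), unadjusted *p* = 0.00140, adjusted *p* = 1), and 296, 379, 357 and 346 in the DM mice. Hippocampal *Ntn5* had 313, 147, 132 and 324 in the WT mice and 76.8, 95.3, 195 and 80.2 in the *Kmt2a*-HET mice (log2 fold change -1.03 ± 0.37 (SE), unadjusted *p* = 0.00520, adjusted *p* = 1), with replicate 3 inside the WT range. The *Kmt2a* dose factor called 0 genes of the 70 in either region by DESeq2 and by edgeR (0% of all amygdala genes and 0.103% of hippocampal ones; at an unadjusted *p* under 0.05, 4 and 11 of the 70, or 5.71 and 15.7%, against 3.08 and 5.77% of all genes). The lowest *p* values were those of *Sema3b* in the amygdala (log2 fold change 0.39 ± 0.17 (SE), unadjusted *p* = 0.0193) and *Sema4a* in the hippocampus (log2 fold change -0.28 ± 0.091 (SE), unadjusted *p* = 0.00217).

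To ask what a second mutation adds, DM mice were set against either single mutant. None of the 70 genes was called by DESeq2 or edgeR against *Kmt2a*-HET (background 0.845% of all amygdala genes and 0.603% of hippocampal ones; 5 and 6 of the 70 at an unadjusted *p* under 0.05, or 7.14 and 8.57%, against 4.48 and 3.49% of all genes) or against *Kdm5c*-KO (0.00329% and 0.0067%; 2 and 9 of the 70, or 2.86 and 12.9%, against 2.29 and 4.53%). By edgeR 0.224% of all amygdala genes and 0.177% of hippocampal ones were called against *Kmt2a*-HET, and 0% against *Kdm5c*-KO in either region. Against *Kmt2a*-HET the lowest *p* was that of *Efnb2* in the amygdala, with 1398, 1224, 1349 and 1481 in the *Kmt2a*-HET mice and 1725, 2046, 1596 and 1634 in the DM mice. Its groups did not overlap (log2 fold change 0.36 ± 0.13 (SE), unadjusted *p* = 0.00608, adjusted *p* = 0.311), and with only those 8 libraries in the fit it was called (0.36, adjusted *p* = 0.0186), with 5 others of the 70, in a fit that called 3.25% of all genes. Striatal markers summed to 35878, 20247, 16425 and 15802 in those *Kmt2a*-HET libraries and 39703, 50677, 37693 and 25520 in those DM libraries. The part of this tissue in the *Efnb2* difference was not tested. In the hippocampus the lowest *p* against *Kmt2a*-HET was that of *Sema3b* (log2 fold change 1.40 ± 0.57 (SE), unadjusted *p* = 0.0138). Against *Kdm5c*-KO *Sema4g*, a transmembrane semaphorin gene, had the lowest *p* in both regions. Its counts in the amygdala were 1199, 1283, 1271 and 1105 in the *Kdm5c*-KO mice and 853, 1007, 884 and 1188 in the DM mice (log2 fold change -0.30 ± 0.12 (SE), unadjusted *p* = 0.0125), and in the hippocampus 980, 584, 803 and 865 and 443, 555, 679 and 609 (log2 fold change -0.50 ± 0.18 (SE), unadjusted *p* = 0.00478).

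A departure of DM from additivity, that is from both single-mutant log2 changes added up, was called for 0 of the 70 genes in either region by DESeq2 and by edgeR (0.00329% of all amygdala genes and 0% of hippocampal ones; 8 and 2 of the 70 at an unadjusted *p* under 0.05, or 11.4 and 2.86%, against 2.82 and 1.91% of all genes). *Sema3a* had the lowest *p* in the amygdala (log2 fold change 0.62 ± 0.22 (SE), unadjusted *p* = 0.00470). Its mean was 409 ± 32.1 (SD, n = 4) in WT, 290.2 ± 29.2 (SD, n = 4) in the *Kmt2a*-HET mice, 317 ± 80.5 (SD, n = 4) in the *Kdm5c*-KO mice and 345 ± 35.3 (SD, n = 4) in the DM mice. In the hippocampus it was *Plxnb3*, a plexin gene of oligodendrocytes (log2 fold change -0.42 ± 0.20 (SE), unadjusted *p* = 0.0374).

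The 80 other axon guidance genes gave 0 calls by DESeq2 in the amygdala in the 3 mutant comparisons against WT (1, 2 and 7 genes at an unadjusted *p* under 0.05 in *Kmt2a*-HET, *Kdm5c*-KO and DM, or 1.25, 2.5 and 8.75% of the list, against 3.05, 3.84 and 4.86% of all genes). In the hippocampus 0 were called in *Kmt2a*-HET, 1 in *Kdm5c*-KO (*Cxcl12*, a chemokine gene, lower) and 1 in DM (*Dpysl4*, a collapsin response mediator gene, lower). A single gene is 1.25% of the list, and 1.01 and 0.875% of all genes were called in the last 2 comparisons. Unadjusted *p* values under 0.05 were there found for 2, 7 and 12 genes (2.5, 8.75 and 15% of the list, against 2.40, 5.55 and 5.33% of all genes).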

How the data were processed

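Poly(A) RNA of amygdala and hippocampus, with ERCC spike-in, was read as paired ends. Per the study's methods the authors aligned reads with STAR 2.5.3a to mm10, kept unique reads without duplicates and counted them with featureCounts (Subread 1.5.0), whereas the deposited gene and transcript tables hold expected counts per feature, partly not whole. The library kit keeps the strand of the RNA (NEBNext Ultra II Directional). The estimator, the strand setting used in counting and the annotation release of these tables are not given in the sources used here. GENCODE M21 identifiers matched them.

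Expected counts were rounded. Rows of spike-ins (0.0503 to 0.511% of counts) were left out. DESeq2 1.42.0 median-of-ratios normalisation and its Wald test were used, fitted over the 16 libraries of each region or over all 32, at an adjusted *p* under 0.1, and a likelihood ratio test was used for region by genotype. A count of 3 in a library corresponds to 0.108 to 0.156 CPM, and this floor covers counting error only. Replicates are separate mice. Genotypes were compared within a region, and the regions share mice by the labels' mouse numbers: deviations of the same mouse correlated with a median of 0.169 (14 of 16 over 0.1), against -0.0813 between different mice of a genotype.

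Genes were named where called, where *p* was smallest in a comparison without calls, where the region difference was among the 2 largest of a family in each direction (mean count of at least 50) and where the level per length was highest in a family. Other members complete a family or are neighbours, and *Cxcl12* and *Dpysl4* were named as the calls of their list against WT. Members and lists were chosen with earlier results of these data known. Alternatives were edgeR 4.0.16 quasi-likelihood, TMM factors, a low-count filter (10 counts in 4 libraries), a threshold of 0.05, a block, fewer groups, another gene length and each library left out. The tests were checked on simulated data with independent libraries, without pairing by mouse or admixed tissue, so that check does not cover these.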

Additional observations from a re-analysis of the deposited data

Results flagged for a closer look

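Within groups of 4 libraries, 1 library stood far from the other 3 (its gap to the nearest was most of the range of the group, past the critical value of Dixon's test) in 17 of 368 groups of 46 genes. This share is near the 1 in 20 or so that chance gives. In the hippocampus of WT mice, replicate 4 stood apart for *Sema3f* (277 normalised counts, the others 84.2 to 114), *Epha8* (190, the others 113 to 121) and *Ephb6* (3783, the others 2341 to 2472). Replicate 1 did for *Unc5a* (6188, the others 4644 to 4837), replicate 2 for *Efna1* (58.8, the others 79.5 to 81.2) and replicate 3 for *Robo3* (602, the others 658 to 668). Among hippocampal *Kmt2a*-HET libraries these were replicate 3 for *Ntn5* (195, the others 76.8 to 95.3), replicate 2 for *Plxnd1* (1655, the others 823 to 903) and replicate 4 for *Sema5a* (6713, the others 2648 to 3304). Hippocampal *Kdm5c*-KO replicate 1 stood apart for *Plxnb2* (3219, the others 2133 to 2216) and DM replicate 3 for *Sema6a* (647, the others 443 to 468).

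In the amygdala, *Kdm5c*-KO replicate 1 stood apart for *Ntng2* (430, the others 672 to 693) and *Slit3* (575, the others 713 to 722) and replicate 3 for *Efna5* (443, the others 245 to 256). DM replicate 4 did so for *Efnb3* (3786, the others 4439 to 4540) and *Sema3e* (242, the others 418 to 451), and DM replicate 2 for *Ntn1* (949, the others 723 to 757).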

How the results depend on the processing

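The 62 region calls were all made by edgeR, with TMM factors, with the low-count filter and with the mouse as a block, 57 at a threshold of 0.05, 60 without the libraries numbered 1 (*Ephb4* and *Sema3g* lost), 59 without the choroid plexus libraries (*Efna4*, *Nrp2* and *Sema3g* lost), 59 to 62 without 1 mouse, and 38 in WT mice alone, where fewer libraries were used. The share of all genes called also changes with the fit (45.2% in the main fit, 57.9% with the low-count filter), so these counts do not have 1 common background. The region by genotype count was 0 under each alternative run. Genotype counts were less stable. In the amygdala the DM against WT count of 1 became 0 with edgeR (0.316% of all genes called) and with only the 2 groups in the fit (0.611%). It also became 0 without the libraries numbered 1 (0.901%) and without the choroid plexus library (0.543%), 2 alternatives chosen after seeing the data. The *Kdm5c* loss factor gave 0 at a threshold of 0.05, with edgeR (0.665% of all genes called) and without the choroid plexus library (1.42%), 2 with the low-count filter (2.02%) and 2 without the libraries numbered 1 (2.61%). *Kdm5c*-KO against WT gave 1 with the filter (0.874%), with the block (1.67%) and without the libraries numbered 1 (0.745%), and DM against *Kmt2a*-HET gave 6 with only the 2 groups (3.25%).

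In the hippocampus the DM against WT count of 1 became 0 at 0.05, with edgeR (0.238% of all genes called) and with the block (1.61%). It was also 0 without the choroid plexus libraries (0.467%) and with only the 2 groups (1.67%). The *Kdm5c* loss factor gave 1 at 0.05, with edgeR (0.931%) and without the libraries numbered 1 (1.82%), and 0 without the choroid plexus libraries (1.22%). DM against *Kmt2a*-HET gave 1 without the libraries numbered 1 (0.780% of all genes) and with only the 2 groups (0.554%), and DM against *Kdm5c*-KO gave 1 with only the 2 groups (0.279%). The cause of these changes was not tested.

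With 1 library left out at a time the amygdala counts were 0 to 3 for *Kdm5c*-KO against WT (0.399 to 1.44% of all genes called), 0 to 1 for DM against WT (0.543 to 1.45%) and against *Kmt2a*-HET (0.405 to 1.40%), and 0 to 2 for the *Kdm5c* loss factor (1.2 to 3.12%). The hippocampal counts were 0 to 1 for DM against WT (0.519 to 1.55%), *Kmt2a*-HET (0.377 to 0.749%) and *Kdm5c*-KO (0.00337 to 0.682%), 0 to 3 for the *Kmt2a* dose factor (0 to 4.43%) and 1 to 3 for the *Kdm5c* loss factor (1.90 to 4.07%). The other comparisons gave 0 throughout.

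By the labels, libraries of the genotypes share only a replicate number: none of 12 genotype comparisons had all 4 same-number pairs correlated over 0.1 (medians 0.253, 0.0644, 0.0662 and -0.0262 for numbers 1 to 4). Pairs of number 1 correlated at 0.210 to 0.466 in the amygdala and at -0.0906 to 0.327 in the hippocampus. The mice of number 1 carry lower mouse numbers than the other numbered mice. With the replicate number as a block *Sema3a* was called in amygdala *Kmt2a*-HET against WT (1 gene of the 70, with 1.07% of all genes called against 0.00988% without the block) and in the departure of DM from the sum (1, with 0.30 against 0.00329%), *Robo3* in *Kdm5c*-KO against WT (1, with 1.67 against 0.751%) and *Efnb2* in DM against *Kmt2a*-HET (1, with 1.80 against 0.845%). Hippocampal *Efna5* was lost in DM against WT (0, with 1.61 against 0.875%). With the longest transcript as gene length 7 of 15 named levels per kb moved by more than the spread, and *Plxnb1*, *Sema4a* and *Nrp1* took the place of *Plxna1*, *Sema4f* and *Nrp2* as the highest of their families. No named difference changed sign under the alternatives run. The depth limits *Epha1*, *Efna4* and *Epha2* most.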
